A study of Mus musculus with 12 samples.

Results

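Interferon-stimulated genes were followed in prostate RNA sequencing of male mice descended from females given chlordecone, also called kepone, an organochlorine insecticide with oestrogen-like activity. The set was chosen by gene name, with earlier results of these data known. It holds 49 genes of the 19091 in the F1 table and the 26023 in the F3 table. Of these, 37 respond mainly to type I interferon and 12 mainly to interferon gamma. Most of them respond to both interferons to some degree, so the split is one of emphasis. The F1 table held 48 of the 49, and 47 passed the filter on low counts. Oas2 had no row there and Oas3 did not pass. In F3 all 49 were present and passed.

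The groups were F1 chlordecone (3 libraries), F1 control (2 libraries), F3 chlordecone (3 libraries) and F3 control (3 libraries). The labels list 12 samples, and F1 control 3 was not analysed here. F1 chlordecone males are sons of pregnant F0 females that received 100 µg/kg/day from E6.5 to E15.5 (embryonic days), and F3 chlordecone males descend from that exposed progeny by further crosses, so that the last dose fell on their foremothers. The sources used here do not give strain, age, the number of dosed females, the treatment of the control females or whether a library stands for 1 animal or a pool. Every p-value below therefore measures the spread between these libraries only.

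Interferons are secreted proteins that warn cells of viral and other nucleic acids. Type I interferons act through the IFNAR receptor, JAK1 and TYK2 to form ISGF3, a complex that contains IRF9 and binds the interferon-stimulated response element (ISRE), whereas interferon gamma acts at gamma-activated sites (GAS) and through IRF1. The induced proteins modify others with the ubiquitin-like ISG15, degrade or sequester viral RNA, block viral entry and budding, or attack the vacuoles of intracellular parasites. Epithelia of the male genital tract express many of them at a basal level without infection.

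Promoter sequence was available for 37 of the 49 genes in RefSeq (GRCm38.p6), as windows of 300 bases from 250 before to 50 after each gene start. The ISRE core GAAANNGAAA, searched on both strands, was present in 12 of 27 type I-dominated genes (44.4%) and in 7 of 10 gamma-dominated genes (70%), against 3.99% of the 27025 genes with a window (3.44% of 32851 windows). The GAS letters TTCNNNGAA, which read the same on both strands, were present in 5 of 27 (18.5%) and 4 of 10 (40%), against 9.55% of genes (8.3% of windows). A match is a description of letters and not evidence of binding. Windows are printed below for 5 genes on which the results turn, from 5′ to 3′ on the strand of the gene, with matches to either motif in capitals and all other bases in lower case. Isg15 (chr4:156200769-156201068, minus strand) holds 3 overlapping ISRE cores that begin 78, 72 and 66 bases before the start, and Rsad2 (chr12:26456403-26456702, minus strand) holds 1, in the other orientation, 120 bases before it.
Isg15: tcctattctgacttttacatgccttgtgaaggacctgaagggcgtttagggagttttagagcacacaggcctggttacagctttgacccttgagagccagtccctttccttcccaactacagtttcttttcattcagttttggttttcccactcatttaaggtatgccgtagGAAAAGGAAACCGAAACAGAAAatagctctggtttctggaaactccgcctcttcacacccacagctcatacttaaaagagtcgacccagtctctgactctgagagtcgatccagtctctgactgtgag
Rsad2: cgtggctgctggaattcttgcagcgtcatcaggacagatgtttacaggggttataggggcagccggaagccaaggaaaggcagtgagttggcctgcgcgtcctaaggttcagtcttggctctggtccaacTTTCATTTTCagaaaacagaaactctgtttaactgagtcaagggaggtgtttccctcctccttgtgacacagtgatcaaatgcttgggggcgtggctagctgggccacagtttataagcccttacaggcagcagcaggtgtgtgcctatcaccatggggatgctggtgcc
Bst2 (chr8:71537423-71537722, minus strand) holds 2 overlapping ISRE cores, 130 and 124 bases before the start, the first of them overlapping a GAS match. Igtp (chr11:58199306-58199605, plus strand), a gamma-dominated gene, has an ISRE core 34 bases before the start with a GAS match beside it. Lgals3bp (chr11:118401910-118402209, minus strand) had no match to either motif in its window and is shown for contrast, since its levels differed between groups as much as those of the genes above.
Bst2: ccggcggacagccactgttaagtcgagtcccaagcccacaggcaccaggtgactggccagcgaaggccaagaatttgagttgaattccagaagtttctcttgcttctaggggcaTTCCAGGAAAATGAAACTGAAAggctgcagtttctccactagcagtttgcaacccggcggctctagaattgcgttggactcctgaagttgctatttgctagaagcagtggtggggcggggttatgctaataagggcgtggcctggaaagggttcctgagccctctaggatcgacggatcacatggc
Igtp: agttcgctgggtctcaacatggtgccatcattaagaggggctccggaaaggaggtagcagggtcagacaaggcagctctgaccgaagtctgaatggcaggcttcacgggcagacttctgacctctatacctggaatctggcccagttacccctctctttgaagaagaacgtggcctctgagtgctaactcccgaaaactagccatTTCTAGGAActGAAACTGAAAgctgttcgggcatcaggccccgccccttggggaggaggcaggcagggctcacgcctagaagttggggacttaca
Lgals3bp: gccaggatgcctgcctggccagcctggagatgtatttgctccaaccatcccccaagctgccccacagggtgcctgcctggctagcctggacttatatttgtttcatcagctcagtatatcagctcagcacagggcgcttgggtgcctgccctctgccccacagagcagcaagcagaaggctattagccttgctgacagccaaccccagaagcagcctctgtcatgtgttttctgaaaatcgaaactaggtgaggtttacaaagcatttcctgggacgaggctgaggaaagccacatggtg

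Total counts were between 17228539 and 28061760 in the F1 libraries and between 71672418 and 114762135 in the F3 libraries, so that low genes are measured more precisely in F3. Levels are given as CPM, the count of a gene scaled to its library's size with TMM factors. Prostate markers were present in every library: 7 secretory and lineage markers such as Pbsn summed to between 40306 and 95102 CPM in F1 and between 87625 and 105504 CPM in F3. In every F1 library, however, the seminal vesicle sum given next was above the prostate sum. The word prostate is therefore used for F1 as the label gives it. F1 libraries stood apart in other tissues of the tract: seminal vesicle markers summed to 186797, 429501 and 528587 CPM in chlordecone 1, 2 and 3, against 118120 and 120770 CPM in control 1 and 2, and vas deferens and epididymis markers summed to 44268, 108 and 13925 CPM in the chlordecone libraries, against 28.9 and 24.8 CPM in the controls. In F3 the vas deferens and epididymis sum was between 0.273 and 0.341 CPM in chlordecone libraries and between 0.113 and 0.133 CPM in controls. The F1 and F3 tables were processed separately, and levels set side by side across them are descriptions only.

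In F3, interferon-stimulated genes were mostly lower in chlordecone prostates than in controls. Of the 49 genes, 45 had a log2 fold change (chlordecone over control) below 0, where 51.2% of all genes tested did. The median was -0.93 for the 37 type I-dominated genes, 34 of them lower, and -0.41 for the 12 gamma-dominated genes, 11 of them lower, against -0.01 over all genes. The difference between the 2 medians was not tested, and their order turned round without control 1 (-0.38 and -0.46). All 3 chlordecone libraries lay below all 3 controls for 19 genes, 16 of them type I-dominated, against 8.25% of all genes, and the opposite order was found for 0 of the 49, against 8.34% of all genes. In bulk tissue, fewer cells of a type and less RNA per cell cannot be told apart.

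No single gene of the set passed the threshold: edgeR's quasi-likelihood test with Benjamini-Hochberg adjustment called 0 of 49 at an adjusted p under 0.05, with 0.0596% called among all genes (10 of 16766). The lowest adjusted p was 0.311, for Isg15. At an unadjusted p under 0.05, 23 of the 49 were lower (5.64% of all genes) and 0 were higher (4.97%). The DESeq2 Wald test called 8 of the 49 lower, Isg15, Usp18, Ifi27, Xaf1, Rsad2, Rtp4, Bst2 and Igtp, where 0.874% of all genes were called lower, and 0 higher, where 0.732% were. Control 1 had the highest level of the 6 libraries for 35 of the 49 genes, where it did so for 17.4% of all genes, and the values without it are given below.

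**Figure D1:**
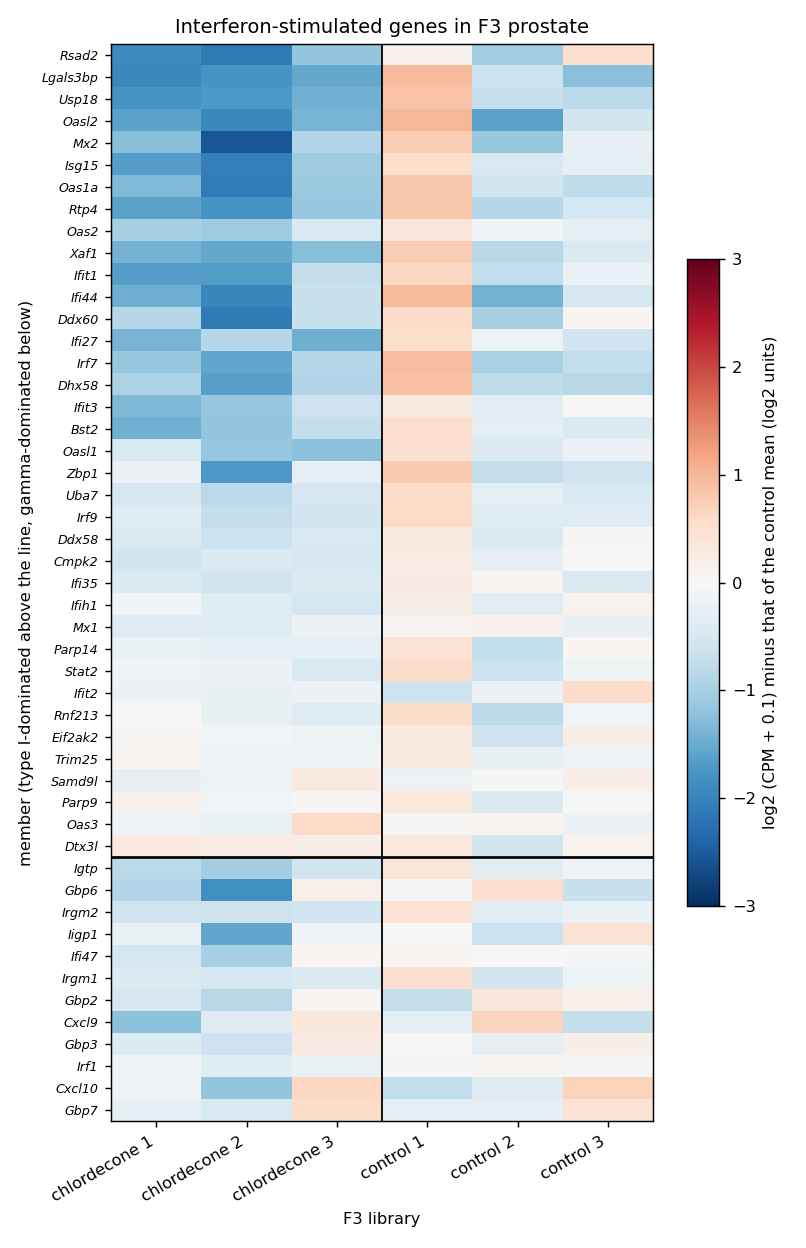
Level of each gene in the 6 F3 libraries, chlordecone left of control, as log2 (CPM + 0.1) minus the same value of the control mean; type I-dominated genes are above the horizontal line and gamma-dominated genes below it, each ordered by fold change. Blue fills the upper rows of the 3 chlordecone columns and red is concentrated in control 1, the highest library for 32 of 37 type I-dominated genes and for 3 of 12 gamma-dominated genes.

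The ISG15 conjugation genes were lower in F3 chlordecone prostates in 4 of 4 cases. Isg15, the ubiquitin-like modifier itself, had 1.86, 1.39 and 2.83 CPM in chlordecone 1, 2 and 3, against 8.79, 4.38 and 5.01 CPM in control 1, 2 and 3. The groups did not overlap, and even the lowest control stood above the highest chlordecone library. Its mean was 2.03 ± 0.732 CPM in chlordecone and 6.06 ± 2.38 CPM in control prostates (SD, n = 3 each), a log2 fold change of -1.58 (SE 0.35, adjusted p = 0.311, edgeR). Usp18, which removes ISG15 from proteins and damps the type I receptor, had 3.81, 3.98 and 4.85 CPM in chlordecone libraries, against 24.0, 8.26 and 7.69 CPM in controls, with no overlap and control 1 far above the rest (log2 fold change -1.66, SE 0.43, edgeR adjusted p = 0.351). Uba7, the enzyme that activates ISG15 for transfer, had 13.2, 10.9 and 13.4 CPM in chlordecone libraries, against 27.9, 15.6 and 13.8 CPM in controls. Those groups were separated only by the narrow gap between chlordecone 3 and control 3. Trim25, a ubiquitin and ISG15 ligase, differed least of the 4, with a log2 fold change of -0.06.

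Genes that act on viral RNA were lower in 8 of 9 cases, with a median log2 fold change of -1.12. Oas1a, an oligoadenylate synthetase that switches on RNase L, had 1.09, 0.592 and 1.28 CPM in chlordecone libraries, against 5.10, 1.88 and 1.64 CPM in controls, without overlap. Ifit3, a partner of IFIT1 in binding foreign RNA, had 0.458, 0.546 and 0.811 CPM in chlordecone libraries, against 1.597, 1.02 and 1.32 CPM in controls. That gap did not depend on 1 control. Ifit1, which holds RNA that lacks the host cap, had 0.521, 0.511 and 1.09 CPM in chlordecone libraries, against 2.89, 1.08 and 1.602 CPM in controls, so chlordecone 3 met control 2. Oas2 and Oasl1 were also separated without overlap, and Oasl2, Ifit2 and the kinase gene Eif2ak2 overlapped. Oas3, at between 0.128 and 0.292 CPM in the 6 libraries, was the 1 gene of this class with a fold change above 0. Oas1a and Ifit3 have near-identical copies beside them, so their reads are uncertain.

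The sensors of nucleic acids were lower in 5 of 5 cases, with smaller differences for the abundant ones. Ddx58, which encodes RIG-I, had 7.79, 6.75 and 7.67 CPM in chlordecone libraries, against 13.0, 7.95 and 10.9 CPM in controls, with no overlap and a narrow gap to control 2. Dhx58, which encodes the RIG-I relative LGP2, had 2.172, 1.30 and 2.28 CPM in chlordecone libraries, against 7.94, 2.49 and 2.33 CPM in controls. Here control 1 stood alone and the other controls lay just above the chlordecone range. Ddx60, a helicase that aids RIG-I, had 0.664, 0.221 and 0.783 CPM in chlordecone libraries, against 1.94, 0.594 and 1.34 CPM in controls, and the groups overlapped. Dhx58 overlaps an antisense gene, and the sources used here do not state the strand setting of the counting.

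Of the transcription factors, 4 of 4 were lower in F3 chlordecone prostates, and 3 of these groups overlapped. Irf7, the amplifier of the type I loop, had 8.95, 6.68 and 10.98 CPM in chlordecone libraries, against 37.6, 10.1 and 11.9 CPM in controls, so that the contrast rested on control 1. Irf9, the DNA-binding subunit of ISGF3, had 40.7, 32.2 and 35.4 CPM in chlordecone libraries, against 77.6, 39.8 and 40.1 CPM in controls, again with control 1 alone at the top. Irf1, the gamma-dominated factor, was separated without overlap by a small margin, at 26.8, 22.9 and 26.0 CPM in chlordecone libraries, against 29.0, 31.1 and 28.8 CPM in controls. Irf7 and Irf9 overlap Phrf1 and Rnf31 in the annotation, so some of their reads are uncertain.

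Effectors that block viral entry, budding or synthesis were lower in 7 of 7 cases. Bst2, which encodes tetherin, a membrane protein that holds budding virions on the cell, had 14.05, 16.97 and 23.6 CPM in chlordecone libraries, against 54.8, 32.0 and 28.7 CPM in controls. The groups did not overlap, and the means were 18.2 ± 4.89 CPM in chlordecone and 38.5 ± 14.2 CPM in control prostates (SD, n = 3 each; log2 fold change -1.08, SE 0.28, edgeR adjusted p = 0.352). Rsad2, which encodes viperin, an enzyme that makes a chain-ending nucleotide, had 0.431, 0.348 and 0.773 CPM in chlordecone libraries, against 2.04, 0.849 and 2.71 CPM in controls. It had the lowest fold change of the set (log2 -1.85, SE 0.48, edgeR adjusted p = 0.358), and its highest control was control 3 rather than control 1. Samd9l, a cytoplasmic restriction factor, hardly differed, with 2.32, 2.45 and 3.39 CPM in chlordecone libraries, against 2.46, 2.63 and 3.17 CPM in controls.

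The other induced genes were lower in 5 of 5 cases and include Ifi27, which had the highest mean CPM of the set in control prostates. In chlordecone prostates the means of Parp9 (70.1 CPM) and Trim25 (56.0 CPM) were above that of Ifi27 (48.9 CPM). Ifi27, a small mitochondrial and membrane protein, had 43.0, 62.9 and 40.9 CPM in chlordecone libraries, against 163, 102 and 74.7 CPM in controls. The groups did not overlap, and the log2 fold change was -1.21 (SE 0.29, edgeR adjusted p = 0.330). Xaf1, a binding partner of the apoptosis inhibitor XIAP, had 4.20, 3.86 and 4.64 CPM in chlordecone libraries, against 19.4, 6.41 and 8.47 CPM in controls (log2 fold change -1.43, SE 0.38, edgeR adjusted p = 0.372). The chlordecone values of Xaf1 lay close together while the controls spread widely. Lgals3bp, a secreted galectin-binding glycoprotein, had 17.6, 19.6 and 23.0 CPM in chlordecone libraries, against 130, 43.0 and 28.1 CPM in controls. Control 3 was nearer to the chlordecone libraries than to control 1.

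Genes of ADP-ribosylation and ubiquitin transfer did not share the lower levels, with 2 of 4 lower and a median log2 fold change of -0.07. Dtx3l, a ubiquitin ligase that pairs with PARP9, had 31.6, 29.9 and 29.3 CPM in chlordecone libraries, against 31.9, 17.5 and 27.4 CPM in controls. Parp14, a mono-ADP-ribosyl transferase, had 25.4, 23.7 and 23.9 CPM in chlordecone libraries, against 39.6, 17.4 and 30.5 CPM in controls. Rnf213, a very large ubiquitin ligase, had 50.1, 42.7 and 38.1 CPM in chlordecone libraries, against 72.8, 28.8 and 47.2 CPM in controls. In each of these 3 genes the chlordecone libraries lay inside the control range or overlapped it, with control 2 the lowest library. Dtx3l overlaps Parp9 on the other strand, so reads of that pair are uncertain.

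Of the gamma-dominated genes, the immunity-related GTPases, which disrupt the vacuoles of intracellular parasites, were lower in 5 of 5 cases. Igtp, also known as Irgm3, had 4.09, 3.50 and 4.77 CPM in chlordecone libraries, against 9.35, 5.83 and 6.73 CPM in controls. Irgm2 had 4.43, 4.32 and 4.38 CPM in chlordecone libraries, against 9.06, 5.28 and 5.81 CPM in controls, and the groups did not overlap in either gene. The Igtp and Irgm2 annotations overlap on the same strand, so these are not independent observations. Irgm1, a regulator of this GTPase family, had 12.2, 11.5 and 12.1 CPM in chlordecone libraries, against 22.7, 11.1 and 15.0 CPM in controls, and control 2 lay below all chlordecone libraries.

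The guanylate-binding proteins, which coat and lyse pathogen vacuoles, overlapped between groups in 4 of 4 cases, as most genes did. Among all genes, 8.25% had every chlordecone library below every control and 8.34% had every one above. Gbp2 had 2.94, 2.29 and 4.42 CPM in chlordecone libraries, against 2.496, 5.30 and 4.66 CPM in controls, where control 1 was the lowest control. Gbp3 had 0.745, 0.627 and 1.22 CPM in chlordecone libraries, against 1.04, 0.849 and 1.17 CPM in controls. Gbp6 was low, at 0.189, 0.0465 and 0.490 CPM in chlordecone libraries, against 0.412, 0.636 and 0.232 CPM in controls, and a second row of that symbol, a different Ensembl gene, was not used. The chemokines that draw activated T cells were near the detection limit: Cxcl9 lay between 0.0813 and 0.434 CPM in chlordecone libraries and between 0.158 and 0.566 CPM in controls. Cxcl10 lay between 0.0348 and 0.377 CPM in chlordecone libraries and between 0.0846 and 0.398 CPM in controls. Neither chemokine separated the groups.

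Per kilobase of exon, the order of levels in F3 was led by Ifi27 at 33.4 CPM per kb in chlordecone and 77.1 CPM per kb in control prostates, followed by Bst2 at 20.2 CPM per kb in chlordecone and 42.6 CPM per kb in control prostates. Lgals3bp had 7.04 CPM per kb in chlordecone and 23.6 CPM per kb in control prostates, and Ifi35 had 13.4 CPM per kb in chlordecone and 18.7 CPM per kb in control prostates. Parp9 came next in the control order. With the control spread of Lgals3bp noted above, its place relative to Ifi35 and Parp9 is not separated beyond the spread between libraries. Oas3, Oas2 and Gbp6 stood at the foot of the order, with control means of 0.0229, 0.0463 and 0.0717 CPM per kb.

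Control 1 of F3 set much of the size of the type I difference. The ratio of control 1 to the mean of control 2 and 3 had a median of 1.84 over the type I-dominated genes, against 0.988 over all genes, and it was at least 2 for 12 of 37 (32.4%), against 2.88% of all genes. The highest ratios were 3.98 for Oasl2, 3.76 for Ifi44, 3.67 for Lgals3bp and 3.43 for Irf7, whereas Rsad2 had 1.15 and Isg15 1.87. The gamma-dominated genes had a median of 0.988 and 0 of 12 at 2 or more, with 1.74 for Irgm1, 1.64 for Irgm2 and 1.49 for Igtp. The summed level of the type I-dominated genes was 568, 531 and 539 CPM in chlordecone libraries, against 1151, 598 and 655 CPM in controls. All 3 controls were above all chlordecone sums, and control 2 was so by a small margin. The gamma-dominated sum was 54.4, 46.9 and 58.1 CPM in chlordecone libraries, against 77.6, 63.3 and 67.3 CPM in controls, also without overlap and with control 1 highest.

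Without control 1, the median log2 fold change was -0.38 for type I-dominated genes, 28 of 37 lower, and -0.46 for gamma-dominated genes, 12 of 12 lower. edgeR called 0 of 49 at an adjusted p under 0.05 in that fit too, with 0.104% of all genes called higher and 0.133% lower. At an unadjusted p under 0.05 it found 11 lower, 10 of them type I-dominated, against 9.04% of all genes. The chlordecone libraries lay below both control 2 and control 3 for 20 of 49 genes, 16 of them type I-dominated, against 18.3% of all genes. Isg15 then had a log2 fold change of -1.21 (SE 0.30), Rsad2 -1.78 (SE 0.53), Usp18 -0.92 (SE 0.18) and Lgals3bp -0.82 (SE 0.21), all with edgeR adjusted p above the threshold. Stat2, Trim25, Eif2ak2, Zbp1 and Rnf213 were among the 9 type I-dominated genes with a value above 0. Without control 2, all chlordecone libraries lay below the remaining controls for 30 genes, against 12.4% of all genes, and above them for 0, against 12.1%. Without control 3 they lay below for 21 genes, against 16.1% of all genes, and above for 0, against 15.6%. The gamma-dominated median was -0.20 without chlordecone 2 and -0.73 without chlordecone 3.

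Leukocyte markers summed over all lists (31 of 32 in the table) were at 159, 134 and 163 CPM in F3 chlordecone libraries, against 305, 290.1 and 177 CPM in controls. They shared the separation of the groups and the highest library with the type I-dominated sum, but not the order within the groups. Control 2 was above control 3 here, whereas the type I-dominated sum was 598 CPM in control 2 and 655 CPM in control 3. All controls were above all chlordecone libraries and control 1 was highest. Cd52, a leukocyte marker also made by epithelium of the male tract, carried much of that sum, with 104, 81.0 and 70.9 CPM in chlordecone libraries, against 235, 163 and 99.0 CPM in controls. Without Cd52 the groups overlapped, at 55.1, 53.1 and 92.6 CPM in chlordecone libraries, against 69.9, 127 and 77.5 CPM in controls, with control 2 highest. The pan-leukocyte markers Ptprc, Cd53, Coro1a and Laptm5 summed to 10.3, 7.63 and 17.5 CPM in chlordecone libraries, against 11.9, 17.8 and 13.1 CPM in controls, with control 1 the lowest control. The 7 macrophage markers, none of them at 0 in all libraries and 6 with a log2 fold change below 0, summed to between 39.9 and 65.3 CPM in chlordecone libraries and between 53.0 and 99.9 CPM in controls, with control 2 highest. The 9 T and NK cell markers summed to between 0.709 and 6.66 CPM in chlordecone libraries and between 1.59 and 5.81 CPM in controls, and the 4 B cell markers to at most 1.78 CPM in a chlordecone library and 1.36 CPM in a control. Smooth muscle markers were lowest of all libraries in control 1, at 1488, 2272 and 2188 CPM in chlordecone libraries, against 1144, 3888 and 3273 CPM in controls. Seminal vesicle markers summed to 13.1, 16.4 and 9.91 CPM in chlordecone libraries, against 47.0, 69.6 and 10.5 CPM in controls. Urothelial markers separated the groups in the other direction, at 201, 187 and 223 CPM in chlordecone libraries, against 114, 158 and 150.3 CPM in controls, with control 1 lowest. They include Upk1a, a uroplakin of the bladder lining and the 1 marker called in F3, which rose to 14.6, 20.2 and 14.9 CPM in chlordecone libraries, against 3.52, 2.23 and 3.24 CPM in controls (log2 fold change 2.46, SE 0.23, edgeR adjusted p = 0.0102). The part of tissue composition in the lower interferon-stimulated levels was not tested.

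**Figure D2:**
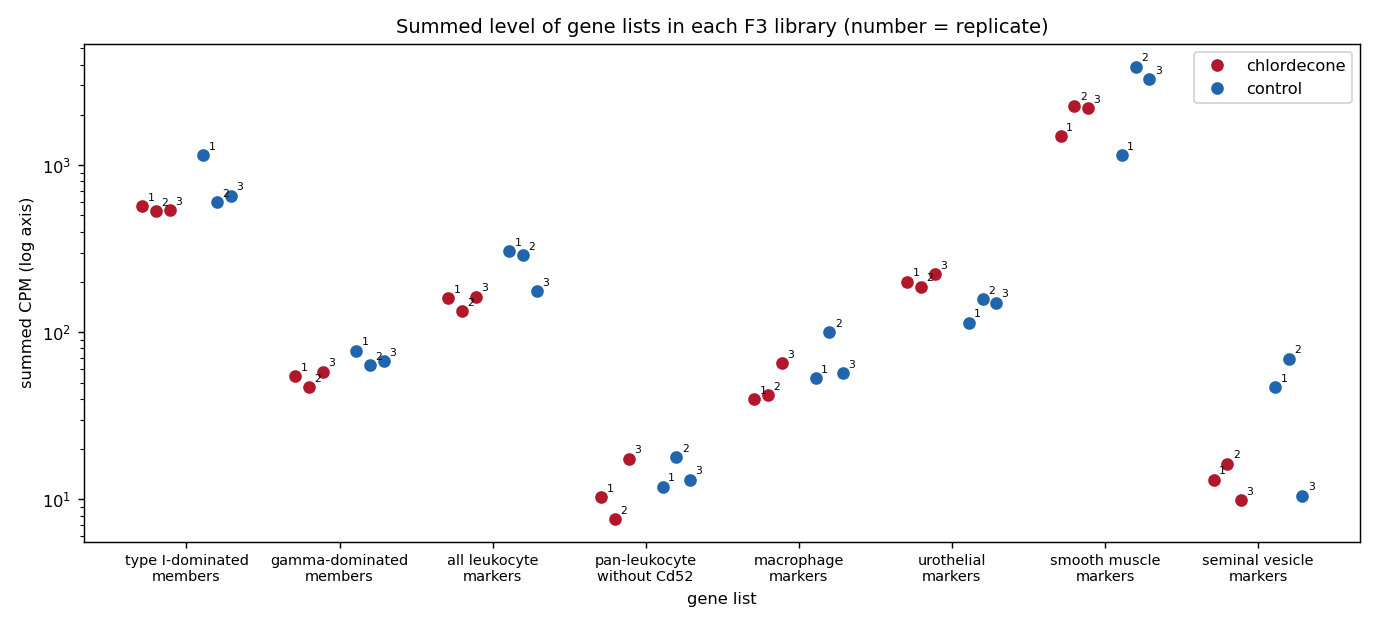
Summed CPM (log axis) of the 2 gene groups and of 6 marker lists in each F3 library, chlordecone (red) left of control (blue), with the replicate number beside each point. The type I-dominated sum is 1151 CPM in control 1 and between 531 and 655 CPM in the other 5 libraries, and the sum of all leukocyte markers also has all controls above all chlordecone libraries with control 1 highest; the sums of pan-leukocyte markers without Cd52 and of macrophage markers overlap, and urothelial markers are higher in every chlordecone library.

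The promoter letters were set beside the F3 differences as a description. Type I-dominated genes with an ISRE core in the window, such as Isg15, Rsad2 and Bst2 printed above, had a median log2 fold change of -1.10 over 12 genes, 6 of them with no overlap between groups. Those without one had a median of -0.54 over 15 genes, 5 of them with no overlap. Among all genes, 8.25% had every chlordecone library below every control. Lgals3bp and Xaf1, without an ISRE core in the window, were nevertheless among the genes with the lowest fold changes. The gamma-dominated genes had a median of -0.37 over 7 genes with an ISRE core and -0.37 over 3 genes without one. The difference between genes with and without an ISRE core was not tested, with or without control 1. Over all type I-dominated genes, the median moved from -0.93 to -0.38 when control 1 was left out.

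In F1, fold changes lay on the other side of 0 for most genes of the set, with wide differences between the chlordecone libraries. Of 47 genes tested, 32 had a log2 fold change above 0, where 51.4% of all genes did. The median was 0.44 for the 35 type I-dominated genes, 22 of them higher, and 0.70 for the 12 gamma-dominated genes, 10 of them higher, against 0.02 over all genes. All chlordecone libraries lay above both controls for 14 genes, against 16.2% of all genes, and below both for 3 genes, against 15.1%. edgeR called 0 of 47 at an adjusted p under 0.05, with 0.0281% of all genes called. At an unadjusted p under 0.05, 8 were higher (7.93% of all genes) and 2, Mx1 and Cmpk2, were lower (3.6% of all genes). DESeq2 called Samd9l, Oas1a and Isg15 higher, where 3.05% of all genes were, and 0 lower, where 0.944% were. Chlordecone 3 had the highest level of the 5 libraries for 25 of the 47 genes, where it did so for 16.1% of all genes.

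**Figure D3:**
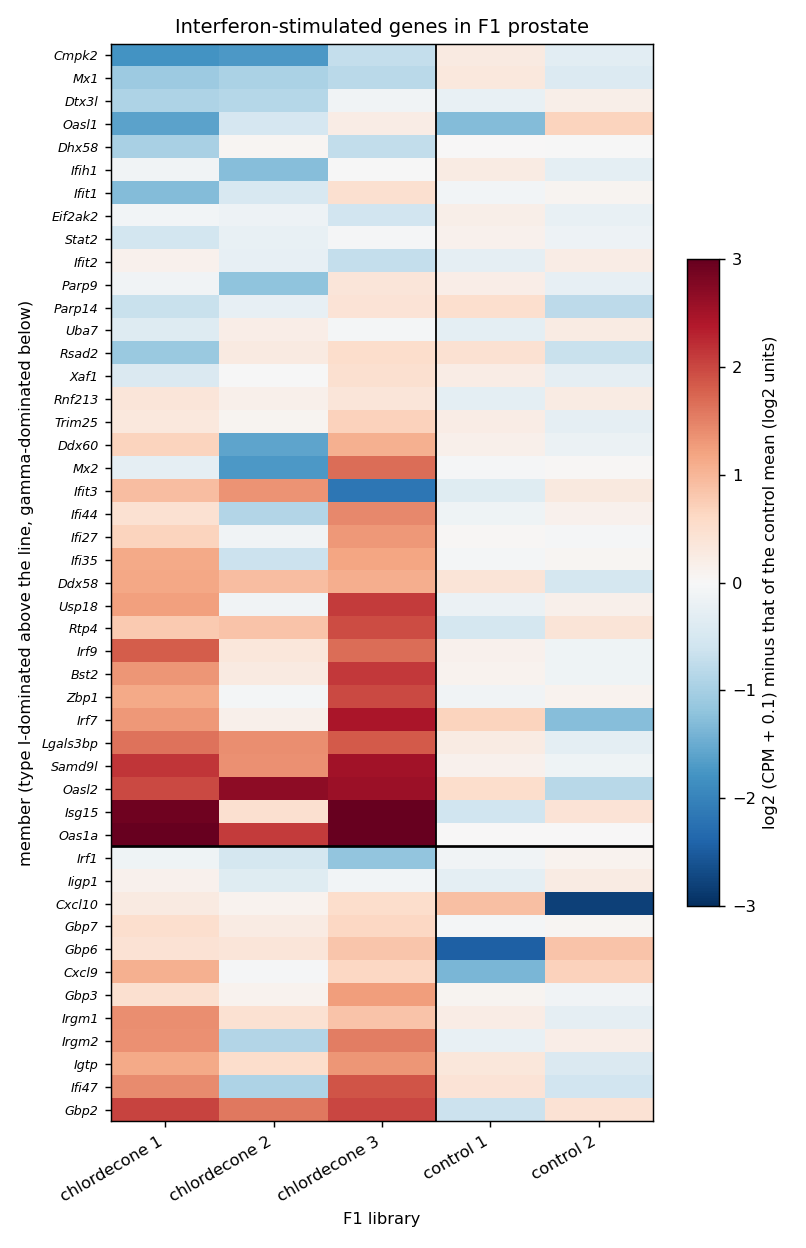
Level of each gene in the 5 F1 libraries, chlordecone left of control, as log2 (CPM + 0.1) minus the same value of the control mean, in the same layout and colour range as for F3. Red is deepest in chlordecone 3, the highest library for 25 of 47 genes, and chlordecone 2 shows blue or pale cells for many genes that are red in chlordecone 1 and 3.

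Samd9l had the lowest p of the set in F1, at 15.3, 8.78 and 19.7 CPM in chlordecone libraries, against 3.67 and 3.05 CPM in controls. All chlordecone libraries were above both controls, and the log2 fold change was 2.12 (SE 0.45, edgeR adjusted p = 0.180). Oas1a had 0.712, 0.327 and 4.28 CPM in chlordecone libraries, from 18, 6 and 93 counts, against 0 counts in both controls. Its mean of 1.77 CPM was at least 11.9-fold higher than a floor of 3 counts per control library (0.149 CPM), which covers counting error only, and the edgeR adjusted p was 0.282. The bound rests on chlordecone 3: without it the mean was 0.520 CPM, at least 3.49-fold above that floor. Isg15 had 8.11, 1.42 and 17.02 CPM in chlordecone libraries, against 0.628 and 1.36 CPM in controls. Chlordecone 2 was level with control 2, so the log2 fold change of 3.14 (SE 1.01, edgeR adjusted p = 0.305) came from chlordecone 1 and 3.

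Irf9 had 22.0, 7.90 and 19.9 CPM in F1 chlordecone libraries, against 6.76 and 5.67 CPM in controls (log2 fold change 1.42, SE 0.48, edgeR adjusted p = 0.321). Irf7 had 5.54, 2.45 and 12.5 CPM in chlordecone libraries, against 3.56 and 0.843 CPM in controls, and overlapped. Chlordecone 2 was the lowest of the 3 exposed libraries for both factors. Usp18 had 5.26, 2.02 and 9.75 CPM in chlordecone libraries, against 1.94 and 2.44 CPM in controls, and Bst2 had 13.1, 6.27 and 22.7 CPM in chlordecone libraries, against 5.55 and 4.73 CPM in controls. Ifi27 had 57.4, 33.6 and 90.1 CPM in chlordecone libraries, against 37.2 and 35.4 CPM in controls. In these 3 genes as well chlordecone 3 was the highest library and chlordecone 2 lay within or next to the control range. Lgals3bp was more even, at 3.32, 2.78 and 3.82 CPM in chlordecone libraries, against 1.205 and 0.796 CPM in controls.

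Some type I-dominated genes were lower in F1 chlordecone prostates. Cmpk2, a mitochondrial nucleotide kinase that neighbours Rsad2 on chromosome 12, had 3.56, 3.76 and 7.68 CPM in chlordecone libraries, against 15.1 and 10.02 CPM in controls (log2 fold change -1.33, SE 0.46, edgeR adjusted p = 0.335). Mx1, a dynamin-like GTPase that blocks influenza and related viruses, had 6.17, 6.81 and 7.50 CPM in chlordecone libraries, against 16.5 and 9.98 CPM in controls. The groups did not overlap in either gene. Rsad2 itself overlapped, at 1.43, 3.87 and 4.65 CPM in chlordecone libraries, against 4.40 and 1.97 CPM in controls. Xaf1, Dhx58, Ddx60, Ifit1 and Uba7 also overlapped between the groups, with log2 fold changes between -0.50 and 0.44.

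Among gamma-dominated genes in F1, Gbp2 had 4.51, 3.32 and 4.51 CPM in chlordecone libraries, against 0.628 and 1.45 CPM in controls. All 3 exposed libraries stood clear of both controls (log2 fold change 1.98, SE 0.69, edgeR adjusted p = 0.339). Igtp had 4.39, 2.83 and 4.97 CPM in chlordecone libraries, against 2.46 and 1.41 CPM in controls, and Irgm1 had 10.1, 5.23 and 6.99 CPM in chlordecone libraries, against 4.45 and 3.14 CPM in controls, both without overlap. Irgm2 overlapped, at 3.997, 0.763 and 4.51 CPM in chlordecone libraries, against 1.26 and 1.73 CPM in controls. Irf1 was the 1 gamma-dominated gene with all chlordecone libraries below both controls, at 11.2, 8.45 and 5.38 CPM in chlordecone libraries, against 11.5 and 13.2 CPM in controls. Cxcl9 and Cxcl10 stayed between 0.654 and 1.86 CPM in chlordecone libraries, against a range of 0 to 1.41 CPM in controls.

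The F1 pattern depended on which chlordecone libraries were counted. The type I-dominated median was -0.059 without chlordecone 3, and then 15 genes were above both controls (19.5% of all genes) and 7 below both (18.2%). It was -0.11, and the gamma-dominated median 0.12, with chlordecone 2 as the only exposed library, an alternative chosen after seeing the data. In that library 16 of 47 genes were above both controls (39.3% of all genes) and 16 below both (36.6% of all genes). Without chlordecone 2, 25 genes were above both controls (32% of all genes), 4 were below both (31.5%) and edgeR called 8 higher, Samd9l, Oas1a, Isg15, Irf9, Bst2, Usp18, Ifi27 and Ifi35, with 9.61% of all genes called higher in that fit.

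Chlordecone 1 and 3 were also the libraries with high vas deferens and epididymis markers, given above, and with high urothelial markers, at 74.2, 14.6 and 73.5 CPM in chlordecone 1, 2 and 3, against 28.6 and 20.99 CPM in controls. Macrophage markers summed to 74.4, 42.6 and 308 CPM in chlordecone libraries, against 36.1 and 39.0 CPM in controls, with Lyz2 alone at 246 CPM in chlordecone 3. The pan-leukocyte markers without Cd52 summed to 13.0, 12.3 and 36.3 CPM in chlordecone libraries, against 11.9 and 11.4 CPM in controls. T and NK cell markers were highest in chlordecone 2, at 6.45, 18.1 and 8.79 CPM in chlordecone libraries, against 5.71 and 5.67 CPM in controls. Dendritic cell markers had log2 fold changes below 0 in 4 of 4 cases. They summed to 3.25, 8.67 and 2.53 CPM in chlordecone libraries, against 9.11 and 8.29 CPM in controls. Smooth muscle markers summed to 10953, 4270.0 and 6907 CPM in chlordecone libraries, against 3774 and 3687 CPM in controls. The part of other tissue or of macrophages in the F1 values was not tested.

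Whether the generations differed was tested in 1 fit of all 11 libraries, as the F3 log2 fold change minus the F1 log2 fold change. It was below 0 for 39 of 48 genes, with a median of -1.50 for type I-dominated and -1.17 for gamma-dominated genes. The median over all genes was -0.035, and the share of all genes below 0 was not counted. edgeR called 0 of 48 at an adjusted p under 0.05, with 0.718% of all genes called, and at an unadjusted p under 0.05 it found 17 below 0 (9.91% of all genes) and 1 above 0 (7.04%). DESeq2 called 13 below 0, against 4.12% of all genes. The smallest p belonged to Oas1a (adjusted p = 0.0555), whose fitted value depends on the 0 counts of the F1 controls. Lgals3bp followed with -3.43 (SE 0.76, edgeR adjusted p = 0.0572), then Oasl2 with -4.32 (SE 0.96, edgeR adjusted p = 0.0589) and Isg15 with -4.66 (SE 1.06, edgeR adjusted p = 0.0606). Oasl2, an ISG15-like relative of the oligoadenylate synthetases, had 1.90, 3.16 and 2.90 CPM in F1 chlordecone libraries, against 0.628 and 0.187 CPM in F1 controls, and 5.75, 4.55 and 6.66 CPM in F3 chlordecone libraries, against 35.3, 5.74 and 12.0 CPM in F3 controls. In 7 genes, against 1.26% of all genes, every chlordecone library was above both controls in F1 and below all controls in F3. Without F1 chlordecone 2, 17 genes were called below 0 (8.45% of all genes), and leaving out F3 control 1, 2 or 3 gave 1 call each time, with 0.768%, 0.325% and 0.413% of all genes called.

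**Figure D4:**
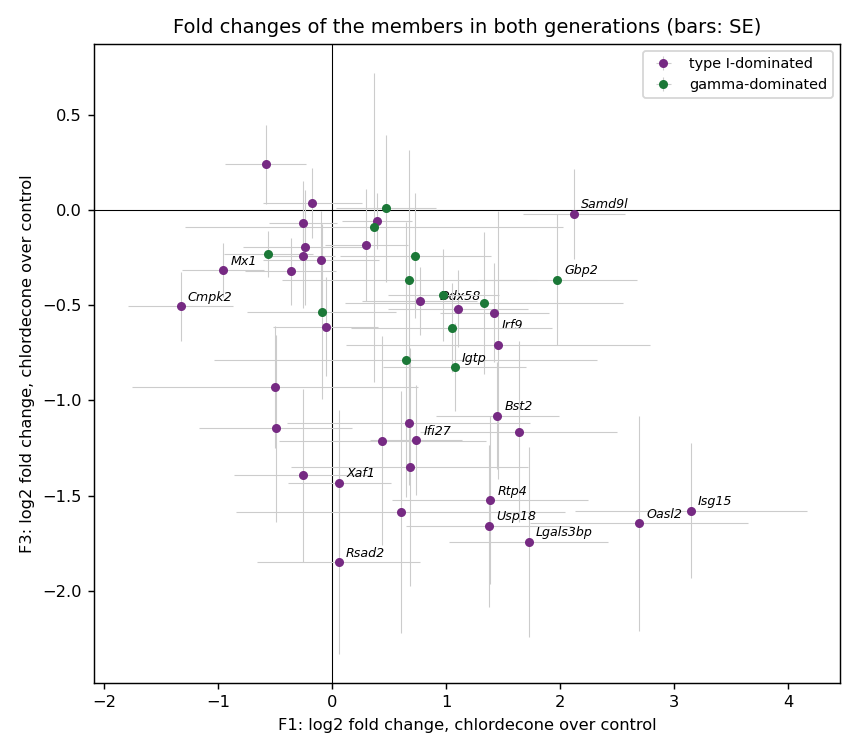
Log2 fold change, chlordecone over control, of each gene tested in both generations, F1 on the horizontal and F3 on the vertical axis, with bars of 1 SE; Oas1a, at 0 counts in the F1 controls, is left out. Isg15, Oasl2 and Lgals3bp lie far to the lower right, higher in F1 and lower in F3 chlordecone libraries, while Samd9l differs along the F1 axis and Rsad2 and Xaf1 along the F3 axis.

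**Figure D5:**
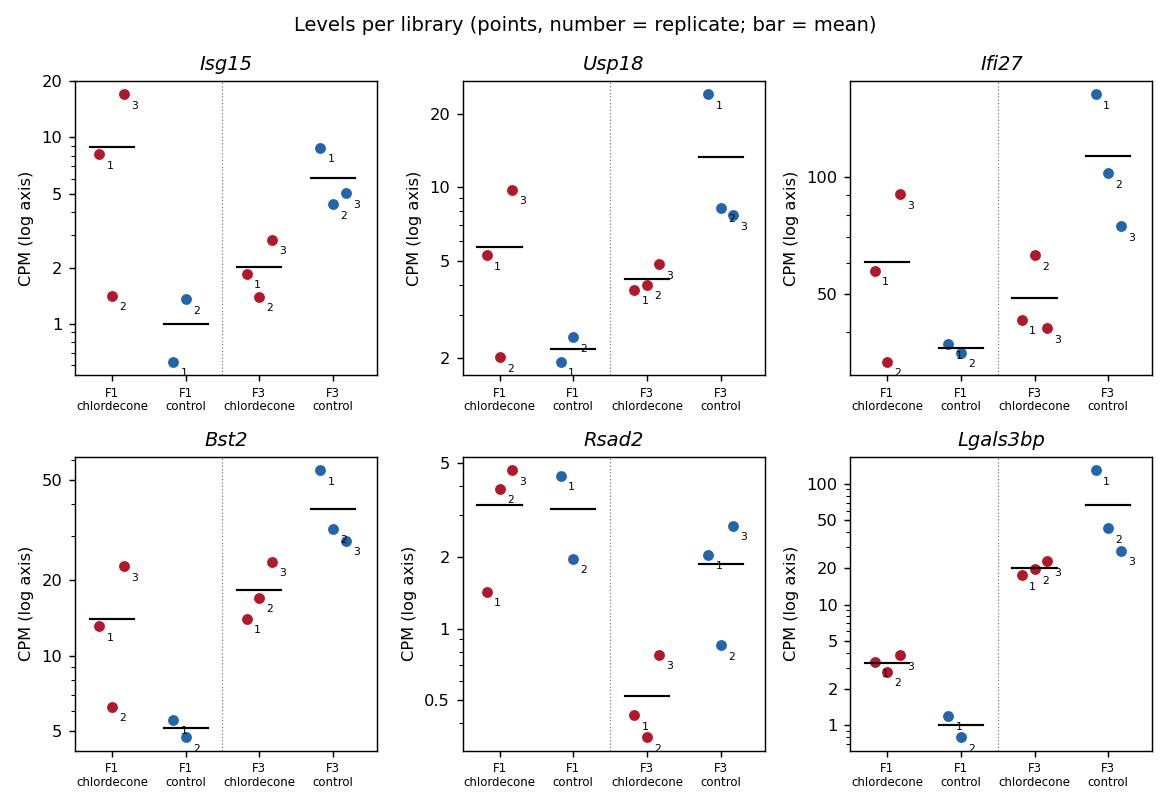
CPM (log axis) of 6 genes in every library, chlordecone (red) left of control (blue) within F1 and within F3; points carry the replicate number and bars are means. Isg15 reaches 17.02 CPM in F1 chlordecone 3 and lies between 1.39 and 2.83 CPM in the F3 chlordecone libraries, which lie below the F3 controls in all 6 panels. That separation follows from the choice of genes. All 6 are among the 19 of 49 genes without overlap in F3, and Isg15, Usp18, Ifi27, Bst2 and Rsad2 are among the 6 with the smallest p there.

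Control levels also differed between the F1 and F3 tables. Generation cannot be told apart there from processing, depth or tissue content. Seminal vesicle markers summed to 118120 and 120770 CPM in the F1 controls, against 47.0, 69.6 and 10.5 CPM in the F3 controls. Lgals3bp averaged 67.1 CPM in F3 controls, far above both F1 control values given above, and Oas1a was at 0 counts in both F1 controls. In the other direction, Ifit1 averaged 5.50 CPM in F1 and 1.85 CPM in F3 controls. Gbp7 averaged 4.37 CPM in F1 and 1.08 CPM in F3 controls. Ifi27 led the per-kilobase order in both tables, at 41.1 CPM per kb in F1 chlordecone and 24.7 CPM per kb in F1 control prostates. Ifi35 came second in F1, at 23.6 CPM per kb in chlordecone and 13.9 CPM per kb in control prostates, followed by Bst2, at 15.54 CPM per kb in chlordecone and 5.69 CPM per kb in control prostates.

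The interferons, receptors and signalling genes upstream were followed as 38 further genes. Of the 9 interferon genes listed, 0 had a row in the F1 table and 1, Ifng, had a row in the F3 table. The alpha, beta, epsilon, kappa and lambda genes listed had no row in either. Ifng had counts in 1 F3 library only, at 0.0141 CPM in control 2. In F3, 29 were tested and edgeR called 0, with a median log2 fold change of -0.0034, 14 higher and 15 lower. At an unadjusted edgeR p under 0.05, 1 was lower (5.64% of all genes) and 1 was higher (4.97% of all genes). The higher one was Ifngr1, the ligand-binding chain of the interferon gamma receptor, with 126, 138 and 163 CPM in chlordecone libraries, against 90.2, 102 and 100.2 CPM in controls (log2 fold change 0.55, SE 0.13, edgeR adjusted p = 0.330).

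The type I receptor chains overlapped between the groups in F3. Ifnar1 had 31.8, 34.6 and 27.9 CPM in F3 chlordecone libraries, against 29.9, 23.8 and 27.2 CPM in controls. Ifnar2 had 20.3, 24.5 and 26.4 CPM in F3 chlordecone libraries, against 24.8, 26.7 and 29.1 CPM in controls. The groups also overlapped for the kinases Jak1, Jak2 and Tyk2, whose log2 fold changes in F3 were 0.12, 0.24 and -0.04. In F1, 27 were tested and edgeR called 0, with 14 higher and 13 lower. At an unadjusted edgeR p under 0.05, 2 were lower (3.6% of all genes) and 0 were higher (7.93% of all genes). Ifngr1 was lower, at 47.8, 26.4 and 50.2 CPM in F1 chlordecone libraries, against 66.9 and 80.2 CPM in controls (log2 fold change -0.83, SE 0.32, edgeR adjusted p = 0.389). The groups did not overlap.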

How the data were processed

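Prostate mRNA was sequenced from F1 and F3 males. The authors deposited 1 table of raw counts per Ensembl gene for each generation. Stranded poly-A libraries were made, per the labels' protocols. HTSeq 0.6.1, TopHat2 2.0.14, Bowtie2 2.1.0 and the mm10 build are named, per the submitters' processing notes. The sources used here do not state the annotation release or the strand setting, so overlapping genes are uncertain. In the headers C was taken for control and K for chlordecone (kepone), and 0 columns of other samples were left over.

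The deposited counts were tested within each generation by edgeR 4.0.16 in R 4.3.3 (filterByExpr, minimum count 10, minimum total 15; TMM; quasi-likelihood F test, two-sided, no covariate; Benjamini-Hochberg adjusted p under 0.05 over all genes). SE is the absolute log2 fold change over the square root of F. The interaction came from 1 fit of 11 libraries. Alternatives included DESeq2 1.42.0, other filters and scalings, a block for the replicate number, and fits that left out each library in turn. Exon lengths and coordinates came from GENCODE M21 (GRCm38). The deposited start and end both matched it for 2.11% of F1 and 78.9% of F3 genes, and the length between them for 98.2% and 79%. No 2 libraries held the same counts. The lowest chi-square per gene was 16.6, between F1 control 1 and 2, against 266 to 599 for other F1 pairs and 60.5 to 339 in F3.

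Levels per library are given for up to 3 genes per role with the smallest p in either generation, and fold change, SE and adjusted p for the 6 with the smallest p in each generation and 4 in the interaction; Mx1, Oasl2 and Trim25 were added after their values were seen. Genes and lists were chosen with earlier results of these data known. The values of 1 upstream gene are not reported here.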

Additional observations from a re-analysis of the deposited data

Results flagged for a closer look

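In 7 genes of the set every chlordecone library lay above both controls in F1 and every chlordecone library lay below all controls in F3, a pattern found in 1.26% of the 16980 genes in both tables (214 genes). They were Isg15, Ddx58, Oas1a, Igtp, Bst2, Rtp4 and Lgals3bp. The interaction, F3 minus F1 log2 fold change, was -4.66 for Isg15 (edgeR adjusted p = 0.0606), -3.43 for Lgals3bp (edgeR adjusted p = 0.0572) and -2.47 for Bst2 (edgeR adjusted p = 0.0687). It was -2.86 for Rtp4 (edgeR adjusted p = 0.106), -1.84 for Igtp (edgeR adjusted p = 0.106) and -1.56 for Ddx58 (edgeR adjusted p = 0.113). The fitted value of Oas1a, -11.16 (edgeR adjusted p = 0.0555), depends on the prior count because both F1 controls had 0 counts. The test of the difference missed the threshold in all 7 genes.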

How the results depend on the processing

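For the genes named by their smallest p, the alternatives tried kept the sign of the fold change, and the adjusted p lay between 0.000217 (Lgals3bp, interaction) and 0.985 (Isg15 in F3). For genes called in F1 (0 in the fit reported), DESeq2 gave 3 (3.99% of all genes), 1 fit of both generations 6 (5.48%), chlordecone 2 alone 3 (6.57%), and leaving out 1 library 0 to 8 (15% without chlordecone 2). The spread of the fit with chlordecone 2 alone comes from the 2 controls, the closest pair of F1 libraries, so its calls give no direction for the set. In F3, DESeq2 gave 8 (1.48% of all genes) and leaving out 1 library 0 to 0. For the interaction, DESeq2 gave 13 (6.78%) and leaving out 1 library 0 to 17 (13.8% without F1 chlordecone 2). Of the upstream genes in F1, 1 fit of both generations called 1, chlordecone 2 alone 2 and leaving out 1 library 0 to 6, the last without chlordecone 2, against the same shares of all genes; in F3 DESeq2 called 1, Ifngr1. The type I-dominated median in F1 was -0.032 with the replicate number as a block, -0.11 with chlordecone 2 alone and -0.059 to 0.68 leaving out 1 library. The gamma-dominated median in F1 was 0.12 with chlordecone 2 alone and 0.57 to 0.94 leaving out 1 library. In F3 the type I-dominated median was -0.62 among genes with a mean of at least 1 CPM, where fewer genes enter, and -1.12 to -0.38 leaving out 1 library, and the gamma-dominated median was -0.73 to -0.20. Except where fewer genes or libraries entered, the cause was not tested.

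Deviations from the group mean gave r of 0.0679 and 0.0679 for same-numbered libraries in F1, and 0.213, -0.0876 and -0.0803 in F3. The F1 check used 2 libraries per group, which mirror each other once centred, so its values are equal by construction. In F3, centring also ties the values to each other, and differently numbered libraries gave r between -0.324 and 0.365. The check therefore cannot decide whether the numbers pair libraries. With the number as a block, edgeR called 0 of the set in F1, 0 in F3 and 0 in the interaction. Among all genes it called 322 against 5 in F1, 8 against 10 in F3 and 49 against 122 in the interaction. Over all genes, DESeq2 called 711 in F1 and 248 in F3, and 1 fit of both generations called 930 in F1. With 2 to 3 libraries per group and low counts for part of the set, a p that misses the threshold does not show equal levels.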
